A study of Homo sapiens with 2 samples.

Results

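The DEAD and DEAH box RNA helicases were taken as all genes of the deposited table whose symbol begins with DDX or DHX and a number, apart from DDX3Y, DDX58 and DHX58. This gave 52 of the 18930 genes in the table, and all 52 had counts. RNA sequencing reads had been counted per gene in 1 library labelled DR and 1 library labelled WT, which GEO describes as total RNA of A375, an established human melanoma cell line. In the study, DR stands for cells made resistant to dacarbazine (DTIC), a drug that alkylates DNA, by exposure to rising concentrations, and WT for the wild-type control, while the treatment field gives 105 days of the drug (spelled DITC there) for the WT sample as well. The names of the count columns differ by 1 punctuation mark and were assigned by the sample descriptions, on which every direction below rests. The library labelled DR held 54878348 reads and the library labelled WT 35294662.

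The labelled cell type did not match most of its markers. Of 17 melanocyte genes, 15 had counts. The highest of them was RAB27A at 78.8 CPM (counts-per-million) in DR and 63.6 in WT, the median was 0.90 and 1.35 CPM, and their levels summed to 135 and 122 CPM. The defining gene SOX10 had 3 reads in DR and 0 in WT, and TYRP1 had 0 and 17. MITF, of the same list, had 34.5 CPM in DR and 34.8 in WT, and like RAB27A lay above the median of all genes tested. All 20 plasma cell genes had counts, with medians of 131 and 100.1 CPM and sums of 14508 and 12270 CPM. JCHAIN, the joining chain of immunoglobulins, had 111812 reads in DR and 101680 in WT. IGLL5 alone gave 7772 and 4805 CPM of the sums, while FCRL5, CD27 and CD79A were at 2.46 CPM or less in either library. Of 10 keratinocyte and fibroblast genes, 7 had counts, at 10.3 CPM at most. The median of all genes tested was 19.9 CPM in DR and 19.7 in WT. The libraries are therefore called DR and WT only as labels, and the part of cell type in the differences below was not tested.

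DEAD and DEAH box proteins are enzymes that spend ATP to unwind RNA duplexes or to strip proteins from RNA. They are named for the letters of a conserved motif that binds ATP. DEAD box proteins mostly open short local duplexes, while DEAH box proteins move along a strand and are often switched on by cofactors with a G-patch. Together they drive splicing, ribosome assembly, mRNA export, translation and decay, and some act against viruses or in germ cells. DDX41, the member that the study followed, carries a DEAD box domain and a zinc knuckle. It is found in the catalytic spliceosome and has been described as a sensor of cytosolic DNA.

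The promoters of DDX60, DDX60L, DHX15 and DDX41 are shown first. DDX60L and DDX41 stood at the ends of the order of differences, and the DDX60, DDX60L and DHX15 windows hold a motif in common. RefSeq sequence (GRCh38.p14) was at hand for 48 of the 52 members, as 250 bases before the annotated start. In DDX60 (chr4:168318753-168319002, minus strand), DDX60L (chr4:168480493-168480742, minus strand) and DHX15 (chr4:24584555-24584804, minus strand) capitals mark the core of the interferon-stimulated response element (ISRE), searched as GAAA, any 2 bases and GAAA again. In DDX41 (chr5:177516962-177517211, minus strand), which holds no such match, capitals mark the CCAAT box in either orientation.
DDX60: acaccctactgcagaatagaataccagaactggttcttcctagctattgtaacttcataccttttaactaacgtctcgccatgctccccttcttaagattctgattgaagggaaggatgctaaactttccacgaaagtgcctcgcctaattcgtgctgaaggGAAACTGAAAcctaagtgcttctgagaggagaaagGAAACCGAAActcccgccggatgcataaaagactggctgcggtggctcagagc
DDX60L: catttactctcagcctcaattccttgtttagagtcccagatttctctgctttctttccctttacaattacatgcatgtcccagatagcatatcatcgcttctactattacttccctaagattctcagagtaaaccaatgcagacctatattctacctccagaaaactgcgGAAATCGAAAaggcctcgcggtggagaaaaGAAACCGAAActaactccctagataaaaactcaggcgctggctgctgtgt
DHX15: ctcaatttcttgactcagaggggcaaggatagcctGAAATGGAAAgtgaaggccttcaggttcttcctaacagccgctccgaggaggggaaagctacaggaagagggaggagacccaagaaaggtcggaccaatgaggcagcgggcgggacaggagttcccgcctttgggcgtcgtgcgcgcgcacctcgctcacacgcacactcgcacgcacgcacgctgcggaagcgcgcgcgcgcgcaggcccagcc
DDX41: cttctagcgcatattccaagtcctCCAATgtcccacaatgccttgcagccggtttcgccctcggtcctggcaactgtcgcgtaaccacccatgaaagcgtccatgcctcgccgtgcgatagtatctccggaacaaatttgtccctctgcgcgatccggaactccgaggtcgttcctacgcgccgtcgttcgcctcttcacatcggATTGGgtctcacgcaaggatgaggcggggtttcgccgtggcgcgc

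To place DDX41 among its family, the difference between the libraries was taken for every gene as log2 (CPM + 0.5) in DR minus the same in WT, with CPM scaled by the TMM method of edgeR. The brackets after a difference give its 95% Clopper-Pearson interval for read counting. Each label has a single library, so no difference has a replicate check or a test, and the spread between cultures lies outside these intervals. Of the 52 helicases, 50 had at least 10 reads over both libraries, as did 16210 genes in all, and DDX4 and DDX25 did not.

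The family leaned toward lower levels in DR. The plasma cell genes, whose part in this was not tested, had a median log2 difference of 0.40 but moved in both directions. Of 20, 10 were higher in DR by 0.5 or more (17.6% of all genes tested), 7 of them by 1 or more (7.42% of all). Lower by 0.5 or more were 2 (14.1% of all), JCHAIN (-0.54) and SDC1 (-0.62). Of the 50 helicases, 39 lay below 0 on the log2 difference, against 49.4% of all genes tested, and the median was -0.15, against 0.01 for all genes. At a difference of 1 or more, which is 2-fold, 4 helicases were lower in DR (background 4.19%) and 0 were higher (background 7.42%). At 0.5 or more, 14 were lower (background 14.1%) and 0 were higher (background 17.6%). The counts of lower helicases depend on genes with fractional counts, without which 28 helicases were left. Of these, 5 were lower by 0.5 or more, near the background of 13.97%, and 1 by 1 or more (background 4.78%). Of the 28, 22 lay below 0, and their median was -0.13, against 0.05 for all genes with whole counts. The share of those genes below 0 was not computed. Helicases are abundant, so the 9860 genes at a mean of 10 CPM or more give a closer background. Among 46 helicases at that level 35 lay below 0 (background 53.8%), 12 were lower by 0.5 or more (background 14.5%) and 0 higher (background 12%). At 1 or more, 2 were lower (background 3.68%) and 0 higher (background 4.03%), so that on the lower side the share of helicases, 4.35%, was near that of all genes at this level. The counting interval lay wholly below 0 for 30 helicases, wholly above 0 for 5, and held 0 for 15. The same shares over all genes were not computed, so these counts are not read as a trait of the family. In bulk RNA, fewer cells of a type and less RNA per cell cannot be told apart.

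**Figure D1:**
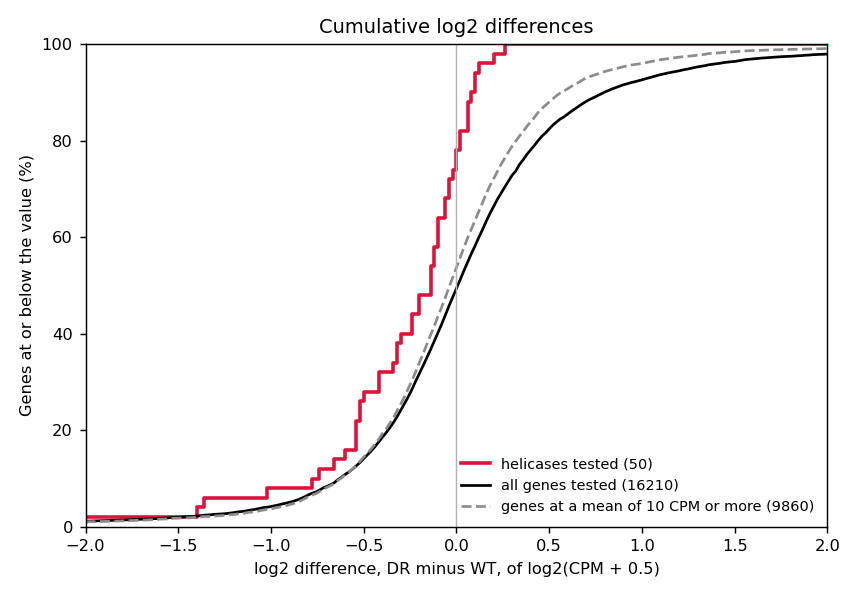
The cumulative share of genes (vertical axis, in %) at or below each log2 difference of DR minus WT (horizontal axis), for 50 helicases (red steps), all 16210 genes tested (black) and the 9860 genes at a mean of 10 CPM or more (grey dashes). The helicase curve reaches 100% at 0.25, the value of DDX41, while both backgrounds run on to the right.

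DDX41 (NCBI Gene 51428) had the highest log2 difference of the 50 helicases tested. It had 3582 reads in DR and 1880 in WT, or 64.3 and 54.0 CPM after scaling. It was thus 1.19-fold higher in DR, a log2 difference of 0.25 (0.17 to 0.33), below both thresholds. Among all genes tested this value stood at percentile 69.7, so the upper end of the family lay well inside the general spread. The next members were DHX40, a DEAH protein of the spliceosome, with 52.0 CPM in DR and 45.7 in WT (log2 difference 0.18, 0.10 to 0.27), and DHX16, with 93.3 and 86.4 CPM (0.11, 0.05 to 0.18). DDX11 followed at 0.09 (0.06 to 0.12). The interval of DDX41 met those of 6 helicases, DHX40 and DHX16 among them, and lay wholly above those of the other 43, so that counting error alone left its lead over its nearest neighbours unsettled.

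By level DDX41 stood in the middle of its family. Levels of different genes were compared per length, as TPM (transcripts-per-million) computed here from reads and the gene lengths in the table. DDX41 had 58.0 TPM in DR and 49.1 in WT, ranks 27 and 31 of the 52 helicases. Its 95% Poisson counting interval ran from 56.1 to 59.9 TPM in DR and from 46.9 to 51.4 in WT. Around it in DR lay DHX38 (64.8 TPM), DHX16 (60.4) and DHX36 (58.8) above, and DDX19B (55.6), DDX10 (50.8) and DHX8 (38.8) below. In WT its neighbours were DDX10 (54.97 TPM), DDX19B (52.9) and DDX51 (51.1) above, and DHX29 (42.4), DDX50 (42.3) and DDX28 (42.2) below. Counting intervals overlapped that of DDX41 for DHX16, DHX36 and DDX19B in DR and for DDX51 and DDX19B in WT, so its place among these is not settled by the reads.

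The whole family held 0.368% of all TPM in DR and 0.473% in WT, as summed levels of 3683 and 4729 TPM. The median over the 50 helicases tested was 59.6 TPM in DR and 61.5 in WT, against 14.4 and 14.5 over all genes tested, and 43 of the 52 exceeded the median of all genes in each library. The 10 highest by mean TPM took 48.7% of the family in DR and 53.9% in WT. DDX5, a coregulator of transcription that also acts in splicing and microRNA processing, ranked first in both, at 258 TPM in DR and 369 in WT. In WT it was followed by DDX24 (321 TPM), DDX3X (285), DDX39A (276) and DHX9 (248). In DR the order after DDX5 was DDX11 (239 TPM), DDX17 (229), DDX39B (204) and DDX39A (187). DDX24 stood at rank 9 there. Of the 15 highest by mean TPM, 13 lay below 0 (background 53.8% at 10 CPM or more) and 7 were lower in DR by 0.5 or more (background 14.5%), with a median log2 difference of -0.32. Of the other 35 helicases tested, 26 lay below 0 (49.4% of all genes tested), with a median of -0.12. Lower by 0.5 or more were 7 (14.1% of all genes tested).

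**Figure D2:**
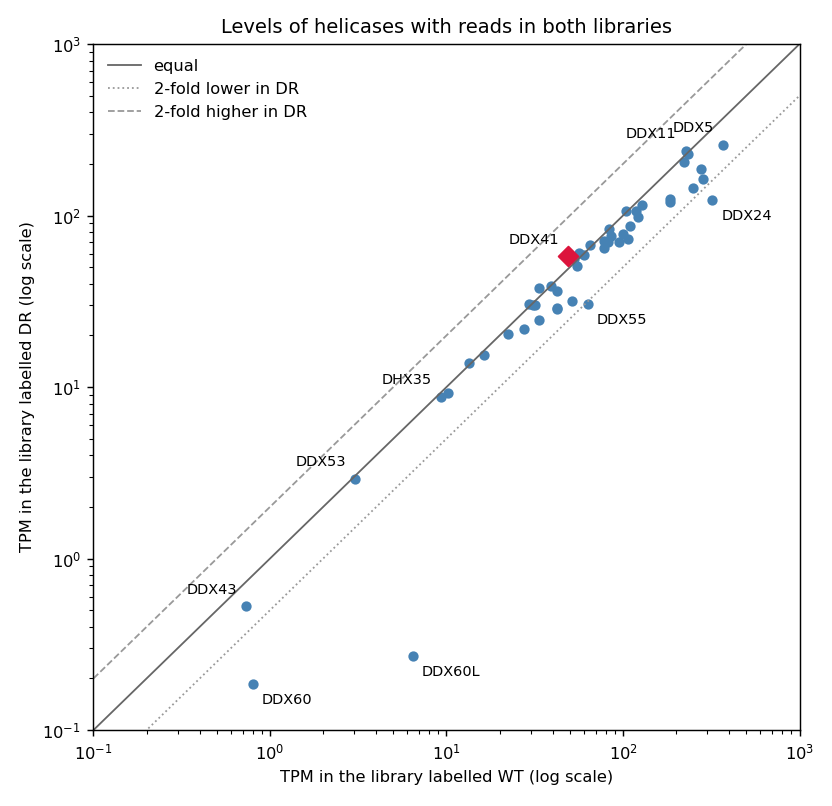
Each point is 1 helicase, at its TPM in WT (horizontal) and in DR (vertical), both on log scales, for the 50 with reads in both libraries. DDX41 (red diamond, 49.1 and 58.0 TPM) lies just above the line of equality, and DDX24, DDX55, DDX60 and DDX60L lie below the dotted line of a 2-fold lower level in DR.

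The splicing helicases divided around 0. All 10 were tested, and the median log2 difference was 0.01. Of these, 4 lay below 0 (background 49.4%) and 1 was lower in DR by 0.5 or more, near the background of 14.1%. DHX15, which disassembles spliceosomes and also acts in ribosome assembly, had 163 CPM in DR and 248 in WT, a log2 difference of -0.60 (-0.65 to -0.56). DDX23, which frees the 5′ splice site for U6, had 143 and 177 CPM (-0.31, -0.35 to -0.26). DHX38, which remodels the spliceosome between its catalytic steps, had 127 and 152 CPM (-0.26, -0.31 to -0.21). DHX8, which releases the spliced mRNA, DDX46 and DDX42, both of the branch site complex, differed by less than 0.05. DHX35 was the lowest of the set by level, at 12.4 and 13.0 CPM. DHX40, DHX16 and DDX41 gave its upper end, and 0 of the set were higher by 0.5 or more (background 17.6%). The summed level of the splicing set was lower in DR, at 676 TPM against 759 in WT, while its share of the family's TPM was 18.3% in DR and 16.1% in WT since the rest of the family, summed, was lower by a larger factor.

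The ribosome assembly helicases were nearly all on the lower side. Of 16, all tested, 15 lay below 0 (background 49.4%), 6 were lower in DR by 0.5 or more (background 14.1%) and 2 by 1 or more (background 4.19%), and the median log2 difference was -0.34. DDX24, a nucleolar protein of the large subunit pathway that also restrains p53, had 9065 reads in DR and 14695 in WT, or 163 and 422 CPM. It was 2.59-fold higher in WT, a log2 difference of -1.37 (-1.41 to -1.33). DDX55, needed for the large subunit, had 34.9 CPM in DR and 71.4 in WT (-1.02, -1.11 to -0.94). The interval of DDX55 held -1, the 2-fold threshold, while that of DDX24 lay wholly beyond it.

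The other 4 ribosome helicases past 0.5 lay close together. DDX51, which acts in maturation of the large subunit, had 66.6 CPM in DR and 105.7 in WT (log2 difference -0.66). DDX56 had 94.2 and 137 CPM (-0.54), and DDX21, which links RNA polymerase I transcription with rRNA processing, had 263 and 384 CPM (-0.54). Its paralogue DDX50 had 34.9 and 50.8 CPM (-0.54). DHX37, DDX54, DDX49 and DDX47 lay between -0.43 and -0.20, and DDX18, DDX52, DDX27, DDX10 and DDX31 between -0.15 and -0.03. DHX33 alone of the 16 lay above 0, at 0.06 (-0.01 to 0.13). The set held 30.2% of the family's TPM in WT and 26.6% in DR. In the table's own annotation, 21 of the 50 helicases carried the term nucleolus (42%, against 4.83% of all genes tested), and their median log2 difference was -0.36, against -0.08 for all 783 genes with the term.

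The helicases of mRNA export, translation and decay were 10, with a median log2 difference of -0.17. Of these, 8 lay below 0 (background 49.4%) and 2 were lower in DR by 0.5 or more, near the background of 14.1%. DDX3X, which helps ribosomes start on structured mRNAs, had 339 CPM in DR and 589 in WT (-0.79, -0.82 to -0.77). DDX39A, an export factor, had 129 and 189 CPM (-0.55, -0.60 to -0.50). DDX6, which represses mRNAs and feeds them to decapping, had 170 and 163 CPM (0.06, 0.01 to 0.11). DDX1, a partner of the tRNA ligase, DHX29, a helicase of scanning ribosomes, and DHX34, of nonsense-mediated decay, lay at -0.13, -0.20 and -0.33. DHX36, which opens G-quadruplexes, lay at -0.02 (-0.08 to 0.05). Of the transcription coregulators, DHX9 had 295 and 499 CPM (-0.76, -0.79 to -0.73) and DDX5 had 442 and 627 CPM (-0.50, -0.53 to -0.48), while DDX17 had 493 and 499 CPM (-0.02) and DDX20 had 21.6 and 20.9 CPM (0.05). Of the helicases of mitochondrial ribosomes, DDX28 lay at -0.54 and DHX30 at -0.15.

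**Figure D3:**
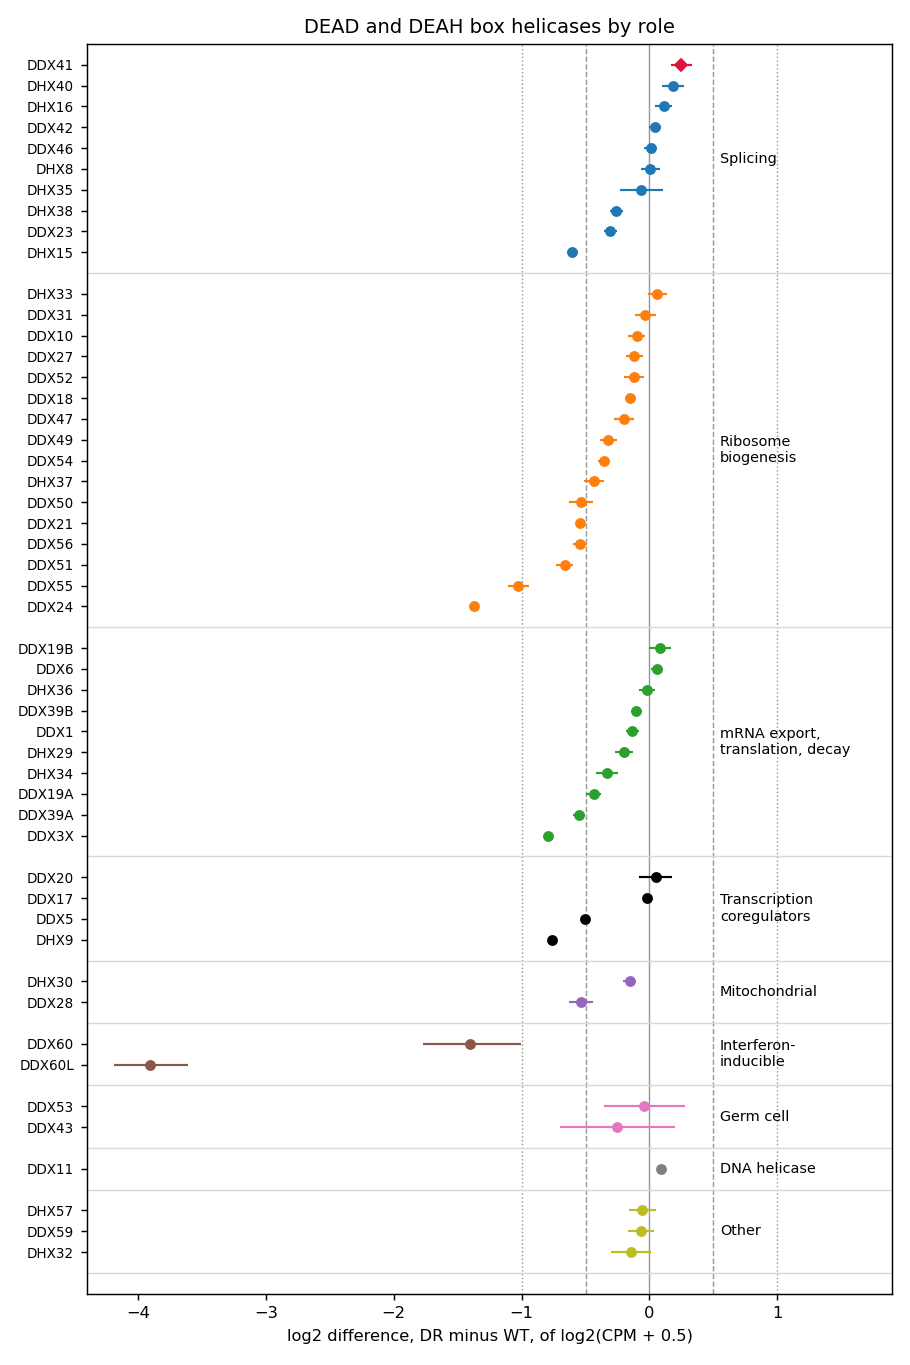
Log2 differences of DR minus WT (horizontal axis) of the 50 helicases tested, grouped by role, with bars for the 95% counting interval. Dashed lines mark 0.5 and dotted lines 1 in either direction. No point lies right of 0.25 (DDX41, red diamond), 15 of the 16 ribosome helicases lie left of 0, and DDX60 and DDX60L lie left of -1.

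DDX60L had the lowest log2 difference of the family. The interval of DDX60 held the value of DDX24, so these are not separated, and with a pseudocount of 5 CPM DDX60 (-0.38) came behind DDX24 (-1.35) and DDX55 (-0.94). DDX60 and DDX60L are neighbouring genes induced by interferon, and DDX60 acts in antiviral defence. DDX60L had 45 reads in DR and 665 in WT, or 0.81 and 19.1 CPM, 23.6-fold higher in WT. Its log2 difference was -3.91 (-4.19 to -3.61), at percentile 0.204 of all genes tested. DDX60 had 28 reads in DR and 75 in WT, or 0.50 and 2.16 CPM, 4.29-fold higher in WT. Its log2 difference of -1.40 (-1.77 to -1.004) is understated by the pseudocount at such levels. The intervals of these genes did not overlap. In RefSeq order the tested gene on the far side of DDX60L was PALLD, with a log2 difference of -0.18, followed by CBR4 at 0.46, and on the side of DDX60 lay CPE, with 4 reads in DR and 22 in WT, at -0.99 (-1.22 to -0.57), and MSMO1 at 0.13. Genes with under 10 reads were passed over in this order, so these neighbours need not adjoin the pair. CPE, on few reads, was lower in DR as well, while PALLD, CBR4 and MSMO1 differed by less than 0.5.

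The windows before the start of DDX60 and DDX60L, printed above, each held 2 matches to the ISRE core. In DDX60 they began 88 and 53 bases before the start, and in DDX60L 80 and 50 bases before it. The nearer match, GAAACCGAAA, had the same letters in both. Of the 48 helicase promoters, 2 held 2 or more matches, these same ones, against 0.227% of the 27305 promoters in the RefSeq table. At least 1 match was found in 3 helicase promoters, and in 3.07% of all promoters, both strands searched. The third was DHX15, whose match began 215 bases before the start. Of the 6 other motifs searched in the same way, the ETS site CCGGAAG was in 31.2% of helicase promoters and 8.82% of all, the CCAAT box in 45.8% and 33.0%, the GC box GGGCGG in 54.2% and 42.3%, and the E-box CACGTG in 14.6% and 6.49%. TATAAA was in 4.17% and 11.1%, and the NRF1 site, GCGCA followed at once by its reverse complement, in 4.17% and 1.13%. Helicases with an ETS site had a median log2 difference of -0.13 and those without it -0.20. A match is a string of letters and not a measured site.

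DDX24 lies on chromosome 14, where the tested genes next to it also differed. OTUB2, a deubiquitinase, had 385 reads in DR and 2053 in WT (log2 difference -3.00, -3.16 to -2.86), and ASB2 beyond it had 2178 and 3163 reads (-1.21, -1.28 to -1.13). On the other side IFI27L1 was at -0.46 (-0.60 to -0.32), and IFI27 had 35 and 5 reads. In GENCODE transcripts, 10.6% of the 50-base windows of DDX24 also occur in transcripts of OTUB2. The use of strand in counting is not given in the sources used here, so reads of the shared stretch cannot be told apart. OTUB2 had fewer reads than DDX24 in either library, but both counts rest on how shared reads were assigned, which was not tested. DDX55 was flanked on chromosome 12 by TMED2 (-0.71), EIF2B1 (-0.50) and GTF2H3 (-0.62), while RILPL1, with 141 reads in DR and 75 in WT, was at 0.19 (-0.15 to 0.54). For DDX55, with 1941 reads in DR and 2486 in WT, 18.7% of windows are shared with EIF2B1. That gene had more reads, 3506 in DR and 3110 in WT.

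Pairs of close paralogues were compared by the share of the pair's TPM that the first gene took. DDX5 took 52.9% of DDX5 plus DDX17 in DR and 61.1% in WT. DDX39A took 47.7% of DDX39A plus DDX39B in DR and 55.5% in WT, so that the more abundant of these export factors was DDX39B in DR and DDX39A in WT. DDX19A, which releases export proteins from mRNA at the nuclear pore, took 55.6% of DDX19A plus DDX19B in DR and 64.3% in WT. In each of these pairs the first gene had the lower log2 difference, by 0.45 to 0.52, and the counting intervals lay apart. DDX21 took 81.3% of DDX21 plus DDX50 in both libraries. DDX60 took 40.6% of DDX60 plus DDX60L in DR and 11.0% in WT, where 28 and 45 reads stood behind the value in DR.

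**Figure D4:**
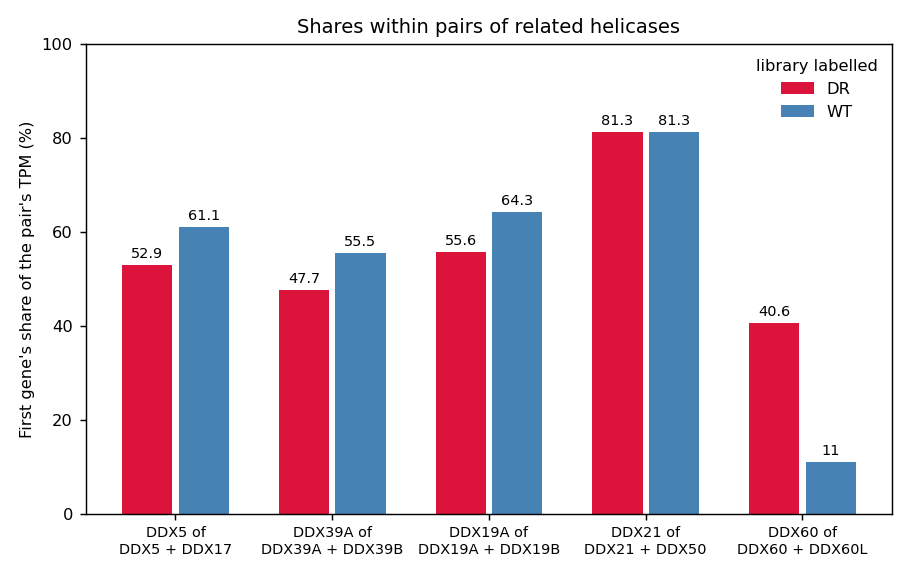
Bars show the share of a pair's summed TPM (vertical axis, in %, from 0) held by its first gene, in the libraries labelled DR (red) and WT (blue). The first gene has a smaller share in DR in 3 pairs, the same share in DDX21 with DDX50, and a larger share in DR in DDX60 with DDX60L.

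Some members share sequence with other genes, and their values are uncertain to that extent. The estimated counts were fractional in either library for 22 of the 52 helicases. Of 50-base windows in the longest coding GENCODE transcript, 24.0% of those of DDX19A occur in DDX19B and 62.2% in transcripts of at least 1 other gene. DDX11, a DNA helicase of the iron-sulphur type that serves sister chromatid cohesion, had 23433 reads in DR and 13779 in WT, or 421 and 396 CPM, and 32.3% of its windows occur in its pseudogene DDX12P. Reads of that copy cannot be told apart from its own over those windows. For DHX40, 24.5% of windows occur in DHX40P1. For DDX47, 99.7% of windows occur in transcripts of APOLD1, and for DDX39B 95.2% occur in the readthrough ATP6V1G2-DDX39B, while DDX39A shared no window with another gene. The change of order between DDX39A and DDX39B therefore rests on a count of DDX39B that cannot be told apart from that transcript. DDX60 and DDX60L shared 0.70% and 0.62% of their windows with each other.

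The germ cell helicases were at the low end. DDX53 and DDX43, cancer-testis genes, had 2.80 and 0.52 CPM in DR and 2.90 and 0.72 CPM in WT, and their intervals held 0. DDX4, the Vasa protein of germ cells, had 4 reads in DR and 0 in WT, and DDX25, a testis helicase, had 0 and 3, both about the 3 reads that a count of 0 allows (0.0539 CPM in DR and 0.0862 in WT). DDX59, DHX57 and DHX32, of less settled roles, lay between -0.14 and -0.06 with intervals that held 0.

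Helicases without a DDX or DHX symbol and the cofactors of the family were listed for comparison. Of all genes tested, 17.6% were higher and 14.1% lower by 0.5 or more, and 7.42% were higher by 1 or more. Of 21 further RNA helicases, 1 was higher by 1 or more, 1 was lower by 0.5 or more, and the median log2 difference was -0.02. The higher gene was HELZ2, an interferon-inducible helicase, with 50.2 CPM in DR and 22.4 in WT (1.15), opposite in direction to DDX60 and DDX60L. The lower was SUPV3L1, of mitochondrial RNA decay (-0.56). EIF4A1, EIF4A2 and EIF4A3, the DEAD box translation and exon junction factors, lay at -0.17, 0.31 and -0.21. Of 22 G-patch proteins, 0 were higher by 0.5 or more and 4 were lower, namely GPATCH4 (-0.80), ZGPAT (-0.63), RBM17 (-0.62) and GPATCH1 (-0.53), with a median of -0.10. Of 20 partners of DEAD box proteins, 0 were higher by 0.5 or more and 3 lower, EIF4G2 (631 and 1395 CPM, -1.14), LSM14A (-0.74) and THOC1 (-0.51), with a median of -0.23. For the G-patch and the partner list, the share of lower genes was near the 14.1% of all genes tested. Of 25 late spliceosome proteins, the set in which DDX41 acts, SLU7 was higher (0.62) and PLRG1 lower (-0.57) by 0.5 or more, and the median was -0.08.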

How the data were processed

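The authors deposited 1 table with the estimated count of reads per gene in each of 2 libraries (1 per group), gene lengths, annotation, and columns of a log2 ratio, p-values and q-values from the authors' comparison, which were not used. The submitters' processing notes name Bowtie 0.12.2 and hg19. The counting tool and annotation are not given in the sources used here. For 663 genes the table holds no count. Estimated counts were rounded and scaled with edgeR 4.0.16 (TMM, R 4.3.3), and 2057 genes whose reads summed to under 10 were filtered out. Differences are of log2 (CPM + 0.5) with 95% Clopper-Pearson intervals (SciPy 1.17.1). Reads carry no molecular identifiers, so intervals cover counting error only. With 1 library per group edgeR's tests could not be fitted and none was made. The computation was tested on simulated data. The members, gene lists, roles and thresholds were chosen with earlier results of these data known. Named are DDX41, its 3 neighbours in each order, members past 2-fold, the 15 most abundant, paired members, and others by role. All 52 members matched RefSeq by gene ID. Promoters come from RefSeq (GRCh38.p14) and transcripts from GENCODE 29, another build than the counts, so no coordinate was joined to them. Protein sequences were not analysed here. The alternatives were scaling by DESeq2 1.42.0 or by library totals, a minimum of 50 reads or none, pseudocounts of 0.1 and 5 CPM, and leaving out genes with fractional counts. A comparison with genes at a mean of 10 CPM or more, and the alternatives for single members and for the rank of DDX41 by difference, were chosen after seeing the data.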

Additional observations from a re-analysis of the deposited data

How the results depend on the processing

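No paired analysis was possible because each group consists of a single library, and no replicate could be left out. The number of helicases at least 2-fold lower in DR, 4, was 2 with a pseudocount of 5 CPM. That setting shrinks the differences of low genes such as DDX60 (-0.38) and DDX60L (-2.05). Without genes of fractional counts it was 1 of 28 (background 4.78%), since DDX55, DDX60 and DDX60L have such counts. Among genes at a mean of 10 CPM or more it was 2. The number lower by 0.5 or more, 14 of 50 (background 14.1%), was 5 of 28 (background 13.97%) without genes of fractional counts, so that most of the excess over the background went. It was 11 of 50 with library totals (background 12.7%) and 10 of 50 with a pseudocount of 5 CPM (background 8.91%). No helicase was higher by 0.5 or more under any setting. With library totals 36 of the 50 helicases lay below 0, and their median was -0.11, against 0.04 for all genes tested. In that setting DDX17 turned from -0.02 to 0.023, and DDX5 moved to -0.46. By CPM, not divided by length, DDX41 ranked 31 in DR and 36 in WT. Its log2 difference ranged from 0.23 with a pseudocount of 5 CPM to 0.29 with library totals, and it ranked 1 under all 7 alternatives in which it was ranked. Scaling shifts all genes almost alike, and the read minimum and leaving out fractional counts did not alter the difference of DDX41. Most of these alternatives could therefore hardly change its rank. Of the 52 helicases, 22 rest on fractional counts, and the spread between cultures is unknown.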

Other observations

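The tested genes nearest to DDX41 on chromosome 5 differed in both directions. DOK3, an adaptor protein of immune cells, had 372 reads in DR and 1809 in WT, a log2 difference of -2.87 (-3.02 to -2.72), and PDLIM7 beyond it was at -0.38. On the other side FAM193B was at 0.62 (0.53 to 0.71) and TMED9, a cargo receptor of the early secretory pathway, at 0.76 (0.71 to 0.81), with 11675 reads in DR and 4293 in WT. These neighbours were looked at after their values could be seen, and no explanation was tested.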
